A study of Mus musculus with 12 samples.

Results

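The 9 genes studied here fold, modify and process procollagen, and their RNA was followed in mouse aortic valve leaflets. They were taken by name from the deposited gene table, as P4ha1, P4ha2, Plod1, Plod2, Plod3, Serpinh1, Pcolce, Bmp1 and Adamts2, and all 9 of 9 were found among 41709 genes. All 9 also passed the filter on low counts, which left 6296 genes for testing. The table held 12 libraries in 4 groups of 3, labelled only with the genotype codes DKO, SMKO, ECKO and CTRL. All animals were of the C57BL/6J;129SvEv background and 2 months old. The study is known to concern Efemp2, which encodes the elastic fibre protein fibulin-4, deleted in smooth muscle lineage cells (SMKO), in endothelial lineage cells (ECKO) or in both (DKO). The labels name neither the allele nor the promoter that drives the deletion, do not say what the CTRL animals carry, and assign no animal to a library. Whole leaflets were cut by laser from fixed sections, so each value is an average over the endothelial, interstitial and other cells of a leaflet. In such bulk samples, fewer cells of a type and less RNA per cell cannot be told apart.

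Collagen chains enter the endoplasmic reticulum as procollagen, where prolyl hydroxylases stabilise the triple helix and lysyl hydroxylases prepare the sites of later cross-links. The chaperone HSP47, encoded by Serpinh1, binds the finished helix until export. Outside the cell, ADAMTS2 removes the amino-terminal propeptide, BMP1 removes the carboxy-terminal one and PCOLCE speeds up BMP1, after which fibrils can form. Valve leaflets depend on these steps because their fibrosa layer is rich in fibrillar collagen.

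The promoters below belong to members that the results turn on. They are the 250 bases before the RefSeq start on GRCm38.p6, an older build than the GRCm39 named for the reads, and RefSeq windows were matched for 7 of the 9 members. Serpinh1, Pcolce and Adamts2, the members with the smallest p in DKO against CTRL, are shown with the GC box GGGCGG, read on both strands, in capitals. This is a motif of Sp1-family factors. The windows lie at chr7:99353240-99353489 (minus strand), chr5:137611405-137611654 (minus strand) and chr11:50601835-50602084 (plus strand).
Serpinh1: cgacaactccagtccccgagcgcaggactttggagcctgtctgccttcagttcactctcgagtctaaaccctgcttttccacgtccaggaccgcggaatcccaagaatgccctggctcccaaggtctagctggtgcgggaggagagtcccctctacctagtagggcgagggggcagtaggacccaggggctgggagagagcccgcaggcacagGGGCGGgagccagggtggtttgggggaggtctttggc
Pcolce: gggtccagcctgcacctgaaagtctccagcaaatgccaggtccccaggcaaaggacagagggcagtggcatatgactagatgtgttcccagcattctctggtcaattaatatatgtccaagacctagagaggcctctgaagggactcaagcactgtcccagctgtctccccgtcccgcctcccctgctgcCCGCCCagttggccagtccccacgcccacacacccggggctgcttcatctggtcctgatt
Adamts2: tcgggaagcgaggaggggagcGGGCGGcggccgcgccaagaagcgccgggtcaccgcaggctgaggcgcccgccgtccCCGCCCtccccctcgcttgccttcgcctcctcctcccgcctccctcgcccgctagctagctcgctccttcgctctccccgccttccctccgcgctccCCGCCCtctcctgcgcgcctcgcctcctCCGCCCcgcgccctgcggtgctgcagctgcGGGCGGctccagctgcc
The Adamts2 window held 5 GC boxes, and the Serpinh1 and Pcolce windows held 1 each. The P4ha2 and Plod1 windows held 2 each, the P4ha1 window 1 and the Plod3 window 0. At least 1 such box stood in 32.7% of 32851 promoter windows of the same length. In the prolyl hydroxylase pair, shares separated SMKO from CTRL libraries, in part on 4 P4ha2 counts each in SMKO 2 and SMKO 3. Its windows are shown with the core of the hypoxia response element, ACGTG or GCGTG on either strand, in capitals. These windows lie at chr10:59323046-59323295 and chr11:54100674-54100923, both on the plus strand.
P4ha1: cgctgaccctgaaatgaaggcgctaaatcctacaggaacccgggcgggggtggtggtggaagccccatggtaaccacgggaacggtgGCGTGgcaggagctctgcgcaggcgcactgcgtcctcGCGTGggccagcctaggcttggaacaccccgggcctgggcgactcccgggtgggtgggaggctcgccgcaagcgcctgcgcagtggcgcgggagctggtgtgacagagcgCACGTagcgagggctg
P4ha2: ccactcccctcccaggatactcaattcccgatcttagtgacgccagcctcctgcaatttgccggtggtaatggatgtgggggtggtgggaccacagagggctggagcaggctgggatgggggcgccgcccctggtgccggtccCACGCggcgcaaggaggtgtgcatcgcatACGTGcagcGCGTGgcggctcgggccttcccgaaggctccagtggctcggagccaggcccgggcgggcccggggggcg
Both windows held 3 matches of this core, and at least 1 match stood in 38.6% of all windows. The Plod3 window held 4, the Plod1, Serpinh1 and Pcolce windows 1 each, and the Adamts2 window 0. A heat shock element of the form GAANNTTC was found in none of the 7 windows and in 6.69% of all windows. These matches describe letters in a window and nothing about binding.

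Libraries held 74827 to 615665 counts, and the 9 members together held 128 counts in the shallowest (SMKO 3) to 1071 in the deepest (ECKO 2). SMKO 3 and CTRL 3 stood apart by depth, both under 2e+05 counts, and they also had the highest shares of mitochondrial counts, 28.5% and 26.7%, within a range of 10.5% to 28.5%. Efemp2 had 0, 0 and 0 counts in DKO libraries, 4, 0 and 0 in SMKO, 3, 15 and 8 in ECKO, and 58, 23 and 9 in CTRL. Leaflet identity was checked on summed marker levels in CPM, counts scaled to a common library total: the 8 interstitial markers reached 18592 to 46504 CPM and the 10 endothelial markers 808 to 1601 CPM over the 12 libraries. Levels of single genes are given below on the same scale, with the values of libraries 1, 2 and 3 in that order. Statements that libraries overlapped, or lay above others, refer to this CPM scale unless TPM, a share or a ratio is named. Folds, standard errors and p-values come from the quasi-likelihood test in edgeR, and a gene is called where its p, adjusted by Benjamini and Hochberg over all 6296 genes, is under 0.05.

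On the length-corrected TPM scale, Serpinh1 and Pcolce were the most abundant members in all 4 groups. Serpinh1 averaged 424 ± 131 TPM in DKO, 270.5 ± 68.5 in SMKO, 309 ± 62.6 in ECKO and 252 ± 95.2 in CTRL valves (SD, n = 3). Pcolce averaged 387 ± 71.2 TPM in DKO, 198 ± 40.5 in SMKO, 235 ± 27.7 in ECKO and 234 ± 71.2 in CTRL. These 2 genes overlapped each other in every group, and neither overlapped the next gene, Bmp1, which averaged 79.7 ± 25.4 TPM in DKO, 82.6 ± 36.2 in SMKO, 74.0 ± 3.89 in ECKO and 58.7 ± 8.79 in CTRL. Plod3 followed Bmp1 in every group. Each later neighbour in the order overlapped the one before it, except Adamts2 and Plod1 in ECKO valves. The order ended with P4ha1 in DKO, ECKO and CTRL valves, at 29.9 ± 14.1, 24.7 ± 7.09 and 20.9 ± 3.02 TPM, and with P4ha2 in SMKO valves, at 20.4 ± 11.9 TPM. All 9 members together made up 1176 ± 235 TPM in DKO, 766 ± 102 in SMKO, 899.5 ± 122 in ECKO and 753 ± 213 in CTRL valves.

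**Figure D1:**
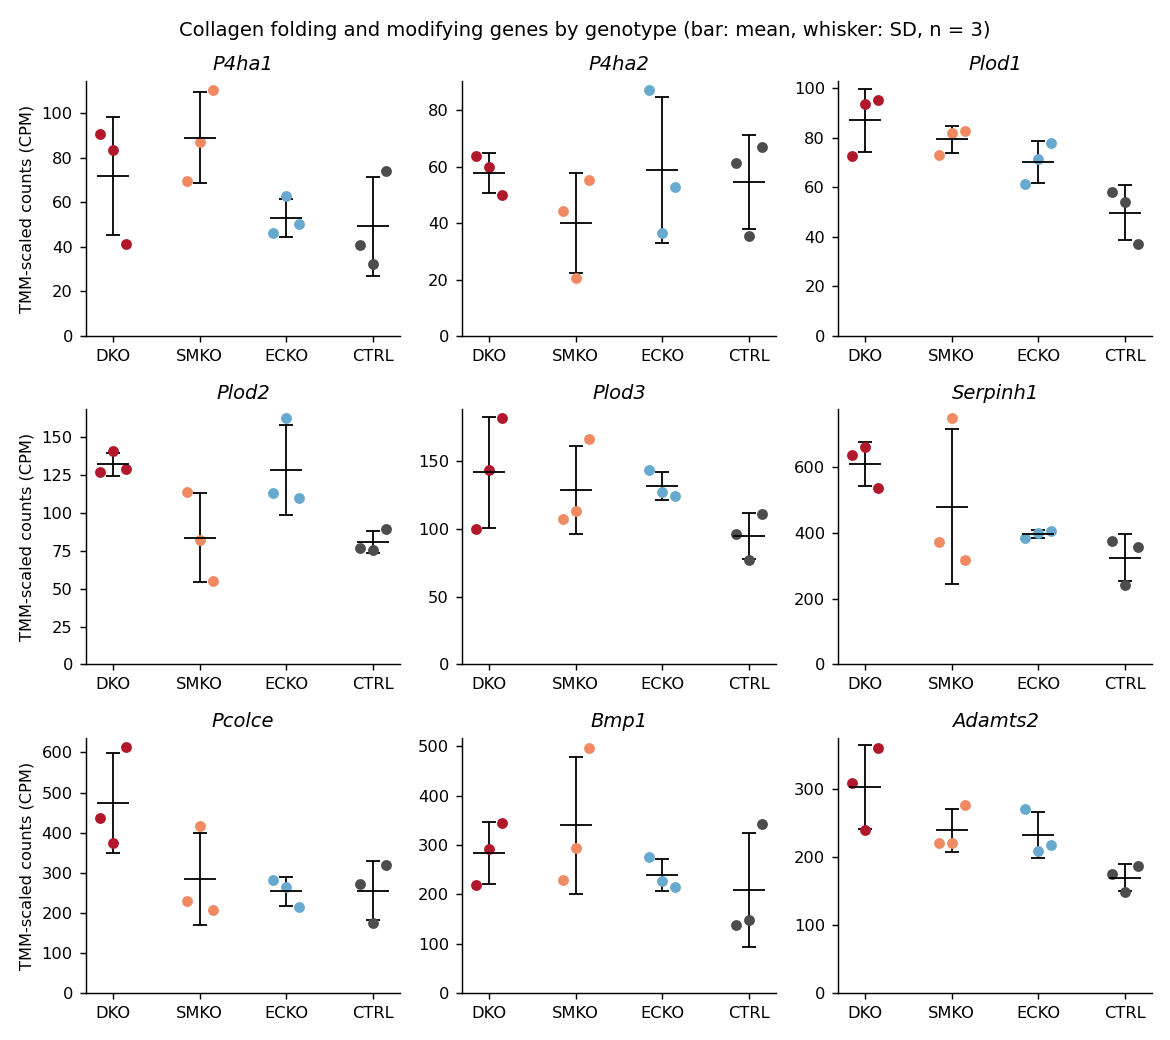
TMM-scaled CPM of each member in every library, 1 panel per gene, with DKO, SMKO, ECKO and CTRL from left to right. Points are libraries, bars are group means and whiskers are SD (n = 3). In the Plod1, Plod2, Serpinh1, Pcolce and Adamts2 panels all 3 DKO points lie above all 3 CTRL points.

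Against CTRL, the log2 fold change in DKO valves was above 0 for all 9 members, but no member passed the adjusted threshold. In TPM the mean of P4ha2 was not higher, at 31.2 ± 8.57 in DKO and 32.4 ± 11.8 in CTRL, while the other members' means were. The median log2 fold change was 0.76 for the 9 members and 0.02 for all genes tested, and 51.5% of all genes had a positive one. At an unadjusted p under 0.05, 7 of the 9 members (all but P4ha2 and Bmp1) were higher, where 6.46% of all genes were. In CPM, all 3 DKO libraries lay above all 3 CTRL libraries for 5 members, namely Plod1, Plod2, Serpinh1, Pcolce and Adamts2, and for 9.70% of all genes. On the TPM scale only Plod2 and Adamts2 of these stayed apart. Serpinh1 (DKO 3 325, CTRL 1 359), Pcolce (DKO 1 312, CTRL 1 316) and Plod1 (DKO 1 27.9, CTRL 1 36.4) overlapped there. By adjusted p, edgeR called 0 of 9 members and 0.492% of all genes, and DESeq2 and limma-voom also called 0 members. The smallest adjusted p of a member was 0.129, for Adamts2. The count of 7 was 4 without DKO 2 and 4 with DESeq2. CTRL 2 was the lowest CTRL library for 7 members, all but Plod1 and Bmp1, and without it the count was 5. Members were chosen with earlier results of these data known, so the counts describe the 9 genes and are no test of them.

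Prolyl 4-hydroxylase is a tetramer whose catalytic subunits come from P4ha1 or P4ha2. P4ha1 stood at 90.8, 83.6 and 41.5 CPM in DKO, 69.8, 87.3 and 110.4 in SMKO, 46.1, 62.7 and 50.5 in ECKO, and 40.8, 32.5 and 74.3 CPM in CTRL valves. DKO 3 was low and CTRL 3 high within its group, so DKO and CTRL overlapped. The fitted log2 fold change was 0.79 ± 0.34 in DKO (SE, edgeR adjusted p = 0.342) and 0.94 ± 0.35 in SMKO (adjusted p = 0.874), both against CTRL. In ECKO valves it was 0.38 ± 0.34 (adjusted p = 0.998).

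P4ha2 had the smallest fold change of the 9 members in DKO against CTRL. It stood at 63.6, 59.7 and 49.8 CPM in DKO, 44.2, 20.5 and 55.2 in SMKO, 87.0, 36.5 and 52.8 in ECKO, and 61.2, 35.5 and 66.9 CPM in CTRL valves. All 4 groups overlapped. Against CTRL, the log2 fold change was 0.17 ± 0.35 in DKO, -0.40 ± 0.39 in SMKO and 0.04 ± 0.35 in ECKO (edgeR adjusted p = 0.92, 0.941 and 0.999). Without 1 library at a time, the SMKO value ran from -0.73 (without SMKO 1) to -0.15 (without SMKO 2, which held 4 counts). The DKO value ran from -0.13 (without CTRL 2) to 0.39 (without CTRL 1), and the ECKO value from -0.25 (without ECKO 1) to 0.37 (without ECKO 2).

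P4ha1 and P4ha2 therefore took different shares of their joint level, which leaves out P4ha3. P4ha1 made up 52.0%, 51.5% and 38.7% of the summed TPM of both in DKO, 54.4%, 76.3% and 60.3% in SMKO, 28.6%, 56.6% and 42.0% in ECKO, and 33.6%, 40.9% and 45.7% in CTRL valves. All 3 SMKO values lay above all 3 CTRL values, while DKO and ECKO overlapped CTRL. The SMKO 2 and SMKO 3 shares rest on 4 P4ha2 counts each, beside 17 and 8 P4ha1 counts. This share was chosen after the values were seen and was not tested.

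Lysyl hydroxylases come from 3 genes. LH1, from Plod1, acts on the helix, LH2, from Plod2, on the telopeptides, where it sets the type of cross-link, and LH3, from Plod3, also adds glucose to hydroxylysine-linked galactose. Plod1 stood at 72.6, 93.6 and 95.4 CPM in DKO, 73.2, 82.2 and 82.8 in SMKO, 61.4, 71.5 and 78.1 in ECKO, and 58.3, 54.1 and 37.1 CPM in CTRL valves. Every library of the 3 mutant groups lay above every CTRL library in CPM, and the lowest CTRL library (CTRL 3) held 5 Plod1 counts. On the TPM scale all 3 mutant groups overlapped CTRL, which reached 36.4 in CTRL 1. The log2 fold change against CTRL was 0.73 ± 0.28 in DKO (edgeR adjusted p = 0.273), 0.54 ± 0.30 in SMKO (adjusted p = 0.886) and 0.43 ± 0.28 in ECKO (adjusted p = 0.998).

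Plod2 was high in DKO and ECKO valves. It stood at 127, 141 and 129 CPM in DKO, 114, 82.2 and 55.2 in SMKO, 113, 163 and 110.2 in ECKO, and 77.2, 75.7 and 89.2 CPM in CTRL valves. DKO and ECKO both lay wholly above CTRL, DKO also lay wholly above SMKO, and SMKO overlapped CTRL. On the TPM scale, however, ECKO 1 (46.0) lay below CTRL 1 (48.7), and DKO 1 (49.3) below SMKO 1 (61.4). Against CTRL, the log2 fold change was 0.76 ± 0.27 in DKO (edgeR adjusted p = 0.222), 0.74 ± 0.26 in ECKO (adjusted p = 0.998) and 0.26 ± 0.29 in SMKO (adjusted p = 0.941). The lowest value came from 4 counts in SMKO 3, and the SMKO fold change was 0.37 without that library, 0.35 without SMKO 2 and -0.10 without SMKO 1. The ECKO fold change was 0.50 without ECKO 2 (adjusted p = 0.999). DKO against SMKO gave 0.50 ± 0.28 (adjusted p = 0.856) and SMKO against ECKO -0.48 ± 0.28 (adjusted p = 1), so a difference of SMKO from the other mutants did not pass the test.

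Plod3 stood at 99.9, 143 and 182 CPM in DKO, 107, 113 and 166 in SMKO, 143, 127 and 124 in ECKO, and 96.2, 77.3 and 111 CPM in CTRL valves. Only the ECKO libraries lay wholly above CTRL, and in TPM ECKO 1 (63.9) lay below CTRL 1 (66.3). The log2 fold change against CTRL was 0.64 ± 0.27 in DKO (edgeR adjusted p = 0.317), 0.38 ± 0.29 in SMKO (adjusted p = 0.934) and 0.51 ± 0.26 in ECKO (adjusted p = 0.998). In TPM, the Plod3 share of the 3 Plod genes was 40.9 ± 5.94% in DKO, 46.1 ± 9.54% in SMKO, 42.2 ± 5.13% in ECKO and 44.1 ± 4.84% in CTRL valves, and its range overlapped between the groups. The Plod2 share also overlapped between all groups. The Plod1 share was 22.4 to 23.7% in DKO and 23.9 to 28.4% in SMKO valves, which did not overlap, by a small margin between DKO 2 and SMKO 1. The SMKO 3 shares rest on 6 Plod1, 4 Plod2 and 12 Plod3 counts. These shares were chosen after the values were seen and were not tested. Exons of Plod3 overlap Znhit1 on the opposite strand and Mir702 on the same one, and exons of Plod2 overlap an unprocessed transcript on the opposite strand. The library kit does not keep strand, so these counts are uncertain to that extent.

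Serpinh1, which encodes the collagen chaperone, stood at 636, 661 and 535 CPM in DKO, 371, 749.7 and 317 in SMKO, 384, 401 and 406 in ECKO, and 375, 243 and 357 CPM in CTRL valves. All DKO libraries lay above all ECKO and CTRL libraries in CPM. The highest single CPM value was SMKO 2, while SMKO 1 and 3 lay within or below the ECKO and CTRL values. ECKO also lay wholly above CTRL in CPM, by a small margin. On the TPM scale, DKO 3 (325) lay below ECKO 3 (356) and CTRL 1 (359), and ECKO overlapped CTRL. SMKO 2 stood at 316 TPM there, beside 304 in SMKO 1, so DKO lay wholly above SMKO on that scale. The log2 fold change of DKO was 0.92 ± 0.29 against CTRL, or 1.89-fold (edgeR adjusted p = 0.168), and 0.62 ± 0.28 against ECKO (adjusted p = 0.435). Against CTRL, SMKO gave 0.59 ± 0.29 (adjusted p = 0.885) and ECKO 0.30 ± 0.29 (adjusted p = 0.998). The SMKO value was 0.10 without SMKO 2 and 0.78 without SMKO 1, and the ECKO value 0.12 without CTRL 2.

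Procollagen processing was led by Pcolce, whose protein binds the carboxy-terminal propeptide and enhances its removal. Pcolce stood at 436, 374 and 614 CPM in DKO, 229.7, 416 and 207 in SMKO, 282, 264 and 214 in ECKO, and 271, 175 and 319 CPM in CTRL valves. DKO lay wholly above ECKO and CTRL in CPM, and SMKO 2 was again the high library of its group on that scale. In TPM, DKO overlapped CTRL but neither ECKO nor SMKO, and SMKO 2 (213) lay below SMKO 1 (229). The TMM factor of SMKO 2, 0.7388, was the lowest of the 12 libraries, and a low factor raises CPM. Unscaled, Pcolce had 135 of 530233 counts in SMKO 1, 81 of 263589 in SMKO 2 and 15 of 74827 in SMKO 3. The part of the factor in the SMKO 2 value was not tested. The log2 fold change of DKO was 0.92 ± 0.29 against CTRL (edgeR adjusted p = 0.168), 0.91 ± 0.29 against ECKO (adjusted p = 0.167) and 0.71 ± 0.29 against SMKO (adjusted p = 0.675). Pcolce was the single member with an unadjusted p under 0.05 in all 3 of these comparisons, which share the DKO libraries. Against CTRL, SMKO gave 0.21 ± 0.30 and ECKO 0.01 ± 0.29. Exons of Pcolce overlap Fbxo24 on the same strand and an antisense transcript, so part of its counts could belong to these.

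Calls in DKO against CTRL depended on SMKO 2, which belongs to neither group. Without it, the adjusted p in that comparison was 0.0224 for Serpinh1 and 0.0429 for Pcolce, so 2 of 9 members were called. Over all genes the calls in that setting were 139 of 7627 tested, beside 31 of 6296 with all libraries. The same setting gave Pcolce an adjusted p of 0.0444 in DKO against ECKO, where calls over all genes went up to 150 beside 36 with all libraries, and 0.0491 in DKO against SMKO, where they went up to 128 beside 0. The gain in calls was therefore not particular to the members, and its cause was not tested. With the DKO and CTRL libraries alone, Serpinh1 had an adjusted p of 0.0488, beside 99 calls among 5763 genes.

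Bmp1, the carboxy-terminal propeptidase, stood at 218, 291 and 344 CPM in DKO, 229.7, 293 and 497 in SMKO, 276, 228 and 214 in ECKO, and 137, 147 and 342 CPM in CTRL valves. The 2 highest values of their groups, in SMKO 3 and CTRL 3, came from the 2 shallow libraries, and every pair of groups overlapped in CPM. In TPM, ECKO (69.5 to 76.5) lay wholly above CTRL (53.3 to 68.8), and the other pairs overlapped. The log2 fold change against CTRL was 0.56 ± 0.32 in DKO (edgeR adjusted p = 0.526), 0.72 ± 0.33 in SMKO (adjusted p = 0.885) and 0.30 ± 0.32 in ECKO (adjusted p = 0.998). The DKO value was 0.31 without CTRL 1, 0.35 without CTRL 2 and 0.99 without CTRL 3. The SMKO value was 0.42 without SMKO 3 and 1.14 without CTRL 3. The ECKO value was 0.05 without CTRL 1, 0.09 without CTRL 2, 0.18 without ECKO 1 and 0.74 without CTRL 3. None of these passed the adjusted threshold.

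Adamts2, the amino-terminal propeptidase, stood at 309, 239 and 361 CPM in DKO, 221, 221 and 276 in SMKO, 271, 209 and 218 in ECKO, and 175, 148 and 186 CPM in CTRL valves. Every mutant library lay above every CTRL library. The log2 fold change against CTRL was 0.84 ± 0.25 in DKO (edgeR adjusted p = 0.129), 0.48 ± 0.26 in SMKO (adjusted p = 0.886) and 0.46 ± 0.25 in ECKO (adjusted p = 0.998). Its paralogues Adamts3 and Adamts14 had 0 and 2 counts over all 12 libraries, and the BMP1-like Tll1 and Tll2 had 0 each, so among these propeptidase genes Adamts2 and Bmp1 alone were measurable at this depth.

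**Figure D2:**
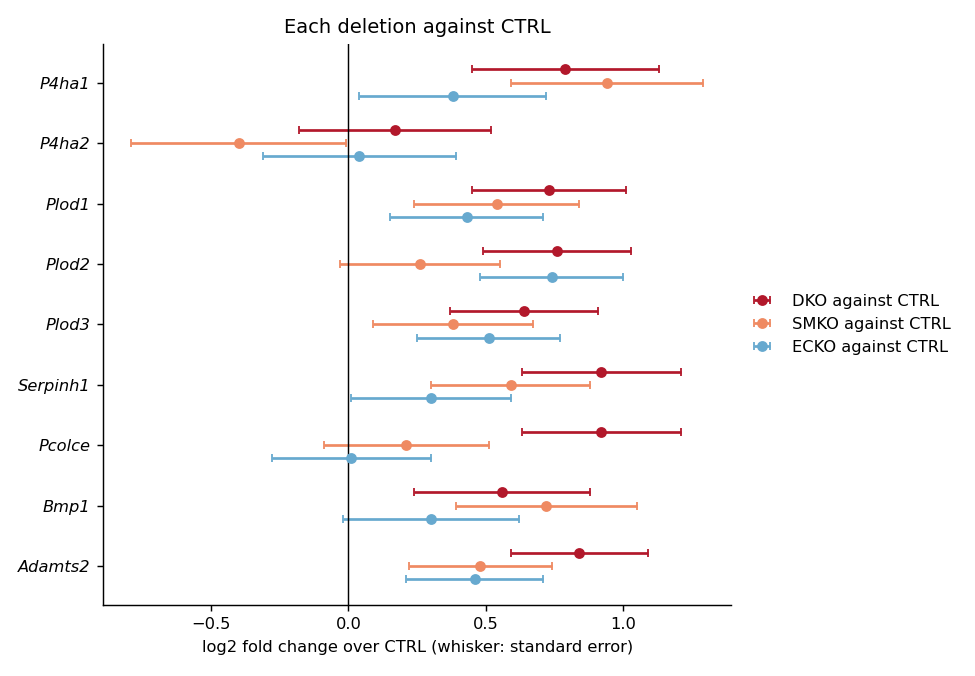
Log2 fold change of each member for DKO, SMKO and ECKO, each against CTRL, with whiskers of 1 standard error from the edgeR fit of 12 libraries. All 9 DKO points lie above 0, between 0.17 (P4ha2) and 0.92 (Serpinh1 and Pcolce), and no point passed the adjusted threshold.

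The single deletions gave lower medians than DKO. In SMKO against CTRL the median log2 fold change of the members was 0.48, beside 0 for all genes, and 8 of 9 were above 0, as were 50.4% of all genes. In TPM, the SMKO means of Pcolce (198), Plod2 (35.4) and P4ha2 (20.4) lay below the CTRL means (234, 41.0 and 32.4). The SMKO means of the other members lay above CTRL there. At an unadjusted p under 0.05, 2 members (P4ha1 and Bmp1) and 2.59% of all genes were higher, and without CTRL 2 the members numbered 0. Plod1 and Adamts2 lay wholly above CTRL in CPM, as did 4.11% of all genes, and both overlapped CTRL in TPM. Adjusted p called 0 members and 0% of all genes, with 0.874 as the smallest adjusted p of a member.

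In ECKO against CTRL the median was 0.38, beside 0 for all genes, and all 9 members were above 0, where 49.5% of all genes were. Plod2 alone had an unadjusted p under 0.05, as 2.11% of all genes did on the higher side. Members at that p numbered 0 without ECKO 2 and 3 without CTRL 3. Plod1, Plod2, Plod3, Serpinh1 and Adamts2 lay wholly above CTRL in CPM, as did 5.73% of all genes. In TPM only Adamts2 of these stayed apart, and Bmp1 lay wholly above CTRL there. The share of all genes apart in TPM was not computed. Adjusted p called 0 members and 0% of all genes. These comparisons share the 3 CTRL libraries with DKO against CTRL.

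Between the mutants, DKO against ECKO gave 0 called members, where 0.572% of all genes were called. Serpinh1 and Pcolce were higher in DKO at an unadjusted p under 0.05, as were 6.07% of all genes, and the same 2 genes lay wholly above ECKO, as did 9.97%. That count was 1 without DKO 1, DKO 2 or any of the 3 ECKO libraries. The other 7 members had log2 fold changes of 0.02 (Plod2) to 0.41 (P4ha1). In DKO against SMKO, 0 members and 0% of genes were called. Pcolce alone was higher at an unadjusted p under 0.05, beside 3.34% of genes (0 members without DKO 3 or SMKO 3, 2 without SMKO 2). In CPM, Plod2 alone lay wholly above SMKO, beside 5.72%. P4ha1 and Bmp1 were at -0.15 ± 0.34 and -0.16 ± 0.32 there. On the TPM scale Plod2 overlapped SMKO. Serpinh1 (DKO 3 325, SMKO 2 316), Pcolce (DKO 1 312, SMKO 1 229) and Adamts2 (DKO 1 48.9, SMKO 1 48.7) lay wholly above it. The share of all genes apart in TPM was not computed. In SMKO against ECKO, 0 members and 0% of genes were called, and 0 members beside 2.00% of genes were higher at an unadjusted p under 0.05. P4ha1 alone lay wholly above ECKO, beside 3.97% of genes, with 0.57 ± 0.34 (edgeR adjusted p = 1).

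Across all 4 groups together, edgeR called 0 members and 0.302% of genes, while 5 members (Pcolce, Adamts2, Serpinh1, Plod2 and P4ha1) and 8.99% of genes had an unadjusted p under 0.05. Without single libraries these 5 numbered as few as 1 (without CTRL 2), 2 (without DKO 1 or CTRL 1) and 3 (without DKO 2, DKO 3 or ECKO 2). Pcolce had the smallest adjusted p, 0.285. The interaction asked whether DKO departed from the sum of the single deletions on the log2 scale. It gave 0 called members beside 0.0318% of genes, and 0 members with an unadjusted p under 0.05 beside 3.05% of genes on the higher side. Pcolce had the largest value, 0.70 ± 0.41 (adjusted p = 0.853), and Serpinh1 had 0.03 ± 0.41.

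In the authors' deposited table, DKO against CTRL had p under 0.05 and a higher level for 7 members, the ones counted above, and for 6.37% of the genes tested here. In the authors' deposited table the largest fold was 1.90 for Pcolce (p = 0.00889), followed by 1.89 for Serpinh1 (p = 0.0216) and 1.82 for P4ha1 (p = 0.00927). Pcolce was the 1 member of 9 with p under 0.05 in the authors' deposited table for DKO against ECKO (fold 1.88, 6.42% of genes) and for DKO against SMKO (fold 1.67, 4.27% of genes).

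The members did not share 1 pattern over the libraries. Likeness was measured as the root mean square difference of log2 CPM, centred on each gene's mean over the 12 libraries. The closest pairs of members were Plod3 and Adamts2 at 0.23, then Serpinh1 and Pcolce at 0.29 and Plod1 and Adamts2 at 0.29. The farthest were P4ha2 and Serpinh1 at 0.70 and P4ha1 and P4ha2 at 0.69. Genes share depth and library here, so these distances are descriptions.

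**Figure D3:**
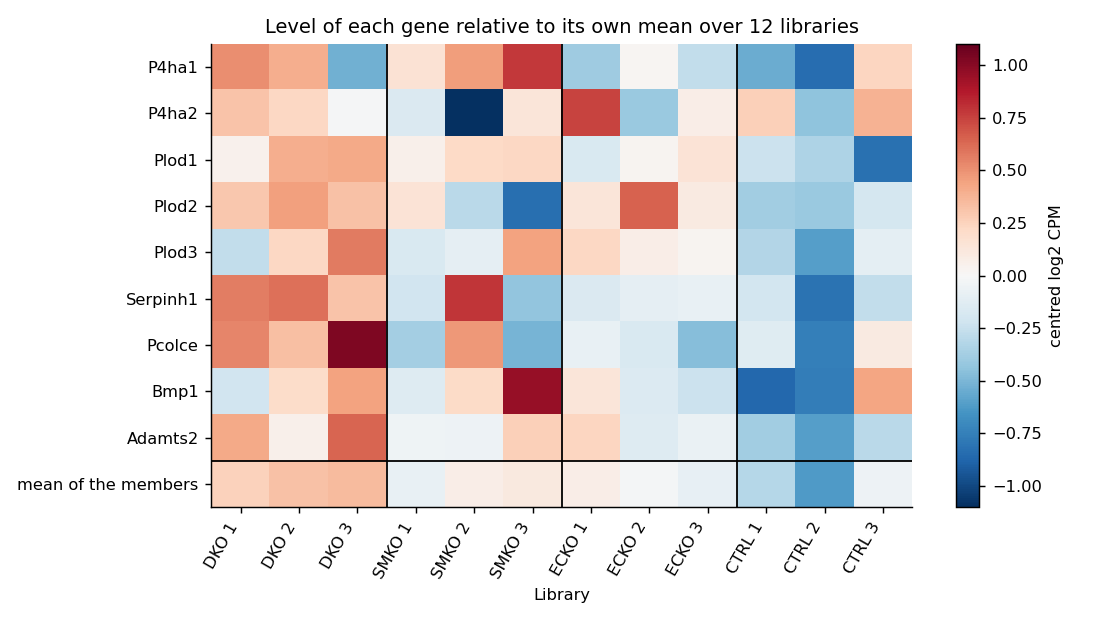
Log2 CPM of each member, centred on its mean over the 12 libraries, with genes in rows, their mean in the last row, and the DKO, SMKO, ECKO and CTRL libraries from left to right. Serpinh1 and Pcolce are high in the 3 DKO libraries and in SMKO 2, while P4ha1 and P4ha2 differ in the SMKO libraries.

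Among all other genes, those nearest to the mean profile of the 9 members were Ptprs at 0.12, Pmepa1, Lmna and Arhgdia at 0.15, Tom1l2 at 0.16, Hsp90aa1, St3gal6 and Pip5k1c at 0.18, and Slc39a13 and Calr at 0.19, where the median over all genes was 0.52. Slc39a13 encodes the zinc transporter ZIP13, in which mutations cause a connective tissue disease in humans, and Calr encodes the chaperone calreticulin. Nearest to Serpinh1 were Bsg at 0.18 and Thbd and Sfxn3 at 0.20, and nearest to Pcolce were Ehd1 at 0.20, Tmbim1 at 0.21 and Bsg at 0.22. Among the genes near to Plod3 were H13 and Tom1l2 (0.17 each), and among those near to Adamts2 were Pld3 (0.18) and Pip5k1c (0.19). P4ha1 was nearest to Larp4b (0.28), Snf8 (0.29) and Slc3a2 (0.30), and P4ha2 to Ncaph2 (0.24), Bdp1 (0.25) and Cmklr1 (0.25). Plod1 was nearest to Ythdf2 (0.18), Sdhb (0.21) and Crim1 (0.21), Plod2 to Kank2 (0.23), Abca8b (0.25) and Ppp4r1 (0.25), and Bmp1 to Pnpla6 (0.23), Mtmr11 (0.27) and Lrrc32 (0.27).

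Collagen chains are the substrates of these proteins. In DKO against CTRL, where 0.492% of all genes were called and 6.46% were higher at an unadjusted p under 0.05, 6 fibrillar chains were tested. Of these, 0 were called and 5 had an unadjusted p under 0.05 on the higher side, with a median log2 fold change of 0.90. Col1a1 had 1.29 ± 0.39 (edgeR adjusted p = 0.132), Col5a2 1.00 ± 0.32 and Col1a2 1.04 ± 0.34. Of 15 tested other chains, Col4a1, a basement membrane chain, was called (1.39 ± 0.29, adjusted p = 0.0188), 10 had an unadjusted p under 0.05 on the higher side, and the median was 0.88. The Col4a1 call was lost without any 1 of the 3 DKO or 3 CTRL libraries, with an adjusted p of up to 0.162. Col16a1 and Col6a1 followed with 1.20 ± 0.29 and 1.19 ± 0.31. Among the other chains Col12a1 had -0.33 ± 0.26, and Col14a1, Col4a5, Col4a4 and Col8a2 had 0.16 to 0.45, with no p under 0.05. Among the fibrillar chains Col3a1 had 0.56 ± 0.33 and did not pass either threshold. In DKO against ECKO, Col18a1 was called (1.54 ± 0.36, adjusted p = 0.0467), and this call was lost without any 1 library of the DKO, ECKO or CTRL groups (adjusted p up to 0.273).

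Set against the summed CPM of Col1a1, Col1a2 and Col3a1, Serpinh1 overlapped between the groups. That sum was 9141 to 11682 CPM in DKO, 5424 to 10481 in SMKO, 5959.9 to 7834 in ECKO and 4212 to 6166 CPM in CTRL valves, and its highest SMKO value was again in SMKO 2. Serpinh1 amounted to 5.78 ± 1.31% of it in DKO, 6.53 ± 0.652% in SMKO, 5.93 ± 0.965% in ECKO and 5.96 ± 0.324% in CTRL, and Pcolce to 4.40 ± 0.859%, 3.95 ± 0.129%, 3.72 ± 0.231% and 4.64 ± 0.519% in the same order. Among the 54 combinations of a member and a pair of groups, some ranges did not overlap. The share of all genes with ranges apart in such a ratio was not computed. P4ha2 amounted to 0.435 to 0.654% in DKO and 0.844 to 1.08% in CTRL valves, and Plod3 to 0.855 to 1.60% in DKO, below 1.83 to 2.08% in ECKO and 1.63 to 1.83% in CTRL. Pcolce amounted to 3.82 to 4.07% in SMKO and 3.58 to 3.99% in ECKO, both below 4.15 to 5.18% in CTRL, and Bmp1 to 1.87 to 3.18% in DKO and 3.44 to 3.58% in ECKO. All other pairs of groups overlapped or met for every member. These ratios are not length-corrected, were chosen after the values were seen and were not tested.

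Other genes of the pathway were taken from lists of known members, and their counts stand beside the same 0.492% called and 6.46% higher over all genes. Of 10 tested other prolyl and lysyl modification enzymes, 0 were called in DKO against CTRL and 3 were higher at an unadjusted p under 0.05, with a median log2 fold change of 0.50. These were the prolyl 3-hydroxylases P3h1 (0.74 ± 0.30), P3h2 (0.66 ± 0.27) and P3h3 (0.68 ± 0.29). Of 8 tested folding helpers, 0 were called and 2 were higher at that p, with a median of 0.15. They were Sparc, an extracellular collagen-binding protein (2.14 ± 0.54, edgeR adjusted p = 0.0742), and Fkbp10, a prolyl isomerase that acts with LH2 (0.87 ± 0.28, adjusted p = 0.175). Creb3l1, a transcription factor for collagen genes in bone, had 0.81 ± 0.43 without passing either threshold. None of the 11 tested export genes passed either threshold, and their median was -0.05. Those with the smallest p were Tfg (-0.52 ± 0.27), Mia2 (-0.77 ± 0.41) and Kdelr3 (0.35 ± 0.30).

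Of 11 tested general chaperones of the endoplasmic reticulum, 0 were called and 2, Hspa5 (0.69 ± 0.28) and Dnajb11 (0.75 ± 0.32), were higher at an unadjusted edgeR p under 0.05, with a median of 0.37. Hyou1 had 0.64 ± 0.38. The 4 tested other processing genes had a median of 0.52, and 0 passed either threshold, with Pcolce2 at 0.58 ± 0.29, Furin at 0.46 ± 0.29 and Postn at 0.59 ± 0.39. Of 7 tested other substrates of BMP1, 0 were called and 3 were higher at that p: Lox (0.98 ± 0.47), Bgn (0.99 ± 0.45) and Hspg2 (0.63 ± 0.27), with a median of 0.26. Of 9 tested genes for cofactor and oxygen supply of the hydroxylases, 0 were called, 0 were higher and 1, Vegfa, was lower at that p (-1.11 ± 0.48), with a median of 0.11. Ldha had 0.47 ± 0.26 and Idh1 -0.51 ± 0.36.

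**Figure D4:**
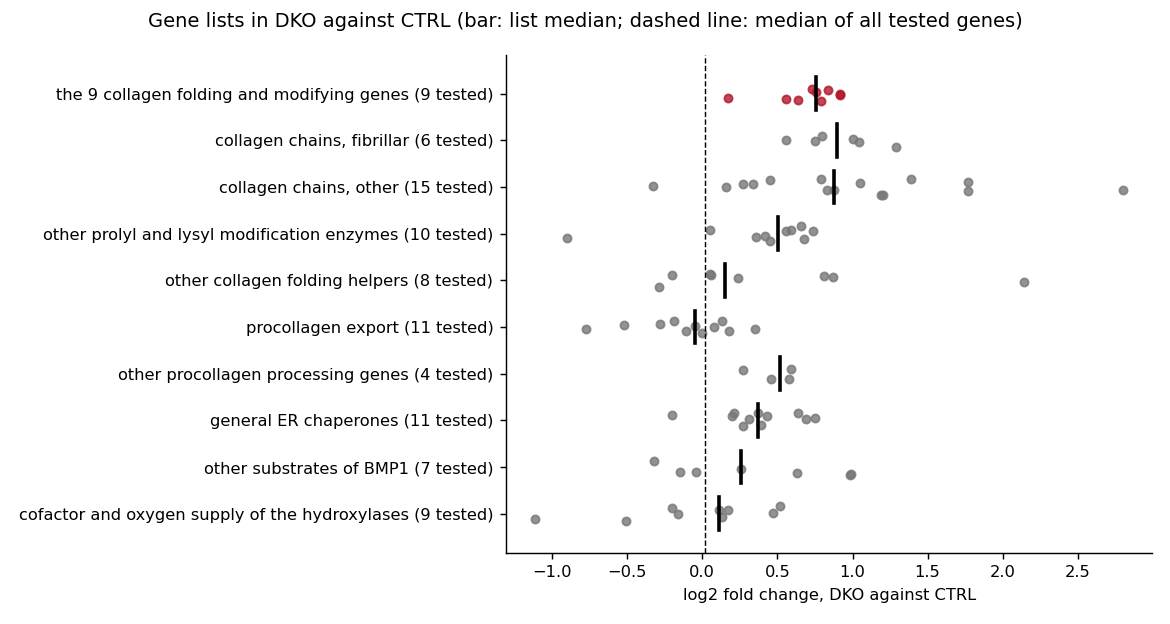
Log2 fold change of DKO against CTRL for the 9 members and for each list of other pathway genes. Points are tested genes, vertical marks are list medians, and the dashed line is the median of all genes at 0.02. The members' median (0.76) lies near those of the fibrillar (0.90) and other (0.88) collagen chains, and the export genes' median is -0.05.

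Markers of several cell types differed in level between the groups. The 10 endothelial markers summed to 808 to 1078 CPM in DKO and 979.9 to 1241 in CTRL valves. Of 9 tested, 4 were lower and 1 was higher in DKO at an unadjusted p under 0.05, beside 5.16% and 6.46% of all genes. The 8 interstitial markers, which include Col1a1 and Col3a1, summed to 26961 to 41278 CPM in DKO and 28945 to 34049 in CTRL valves. The 6 smooth muscle markers summed to 290.3 to 335 CPM in DKO and 215 to 266 in CTRL, with Des and Myocd at 0 in DKO and Cnn1 and Myocd at 0 in CTRL. The 8 macrophage markers summed to 478 to 1078 CPM in DKO and 657 to 877 in CTRL, and the 6 melanocyte markers to 384 to 903 and 201 to 677 CPM. The heart muscle markers Myh6, Actc1, Myl2 and Nppa were at 0 in all DKO libraries, and the 7 summed to 61.7 to 77.2 CPM in DKO and 27.7 to 59.4 in CTRL. In DKO against CTRL 0 markers of any list were called, beside 0.492% of all genes. Serpinh1 and Pcolce did not overlap in CPM in DKO against ECKO, as in DKO against CTRL. In DKO against ECKO, 1 of 9 tested endothelial markers was called, beside 0.572% of all genes. At an unadjusted p under 0.05, 4 of them were lower, beside 4.73% of all genes. The endothelial markers summed to 808 to 1078 CPM in DKO and 1234 to 1504 in ECKO. In the same comparison 1 of 5 tested melanocyte markers was called and 4 were higher at that p, beside 6.07% of all genes. The median log2 fold change of these 5 was 3.36. In SMKO valves the smooth muscle markers summed to 138 to 231 CPM, and in ECKO valves the melanocyte markers summed to 61.4 to 101 CPM and the heart muscle markers to 10.2 to 716 CPM. The 5 blood markers summed to 99.6 to 427 CPM in DKO, 497 to 2275 in SMKO, 41.0 to 5561 in ECKO and 202 to 3425 in CTRL. The part of these cell types in the members' values was not tested.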

How the data were processed

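RNA from laser-cut aortic valve leaflets of 12 mouse libraries (3 each of DKO, SMKO, ECKO and CTRL) was sequenced by the authors. The deposited table holds whole-number total counts and TPM per library, per the file headers, and the authors' signed fold change (a score without a value between -1 and 1) and p-value for DKO against each other group. The test that gave that p-value, any adjustment of it, the aligner, the counter and the annotation were not stated in the sources used here. The submitters' processing notes name the build GRCm39.

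Counts were scaled by TMM and filtered by filterByExpr (minimum 10 counts in 3 libraries). They were tested with edgeR 4.0.16 (quasi-likelihood, robust, R 4.3.3) in 1 fit of the 12 libraries (8 residual degrees of freedom, no covariate). The common biological coefficient of variation was 0.246, and p-values were adjusted by Benjamini-Hochberg over 6296 genes, which held 93.1% of counts. A standard error is the size of the log2 fold change divided by the root of its F value. The script was tested on simulated data. DESeq2 1.42.0, limma-voom with library weights (limma 3.58.1), other filters and scalings, a depth covariate, a replicate block and leaving out libraries were alternatives. Libraries of a group differed by more than sampling noise (chi-square per degree of freedom 2.04 to 13.3). The labels call them biological triplicates without naming animals, so p-values measure the spread between libraries. The labels' replicate numbers were read as names only: deviations of same-numbered libraries correlated by -0.14 to 0.18, -0.039 to 0.11 and 0.017 to 0.15.

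The 9 members and the lists were chosen with earlier results of these data known. Named are all members, the genes nearest in pattern (10 to the mean, 3 to each member, 1 of which is not reported here), called list genes and the 3 list genes with the smallest p. Likeness uses log2 CPM with a prior count of 2 and leaves out predicted models and mitochondrial genes. Promoters and exon overlaps come from GRCm38.p6 tables. Precision is set by depth, with a median of 321311.5 counts per library.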

Additional observations from a re-analysis of the deposited data

How the results depend on the processing

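Each result was recomputed under 20 alternatives, of which 12 left out 1 library. Leaving out a library moved the number of called members over 0 to 2 in DKO against CTRL (2 without SMKO 2, where 139 of 7627 genes were called), and over 0 to 1 in DKO against ECKO, in DKO against SMKO and in the test across the 4 groups. A fit of the 2 groups alone called 1 member each for DKO set against CTRL and for DKO set against ECKO, where Pcolce had an adjusted p of 0.0237. Members higher at an unadjusted p under 0.05 numbered 4 to 8 of 9 in DKO against CTRL, 1 to 2 in DKO against ECKO, 0 to 2 in DKO against SMKO, 0 to 3 in ECKO against CTRL, 0 to 3 in SMKO against CTRL, 0 to 1 in the interaction and 1 to 6 across the 4 groups when 1 library was left out. DESeq2 gave 4 in DKO against CTRL and 3 across the 4 groups. Limma-voom gave 2 in DKO against SMKO, 2 in ECKO against CTRL and 1 in the interaction. Without both shallow libraries the counts were 0 in DKO against SMKO and 3 in ECKO against CTRL, and with 2 groups alone they were 0 and 3, and 1 in SMKO against CTRL. The cause was not tested.

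Of 54 log2 fold changes of members in pairs of groups, 14 changed sign under an alternative, and none of the 14 was called under the alternative that reversed it. Adamts2 in SMKO against ECKO was -0.02 with no filter, -0.06 with depth as a covariate and -0.05 without the shallow libraries. P4ha2 in ECKO against CTRL was -0.02 with the depth covariate and -0.04 with limma-voom. Other changes by an alternative fit were Bmp1 in DKO against SMKO (0.04 and 0.13), Pcolce in ECKO against CTRL (0.00 with limma-voom) and Plod2 in DKO against ECKO (0.00 and -0.03). When 1 library was left out, DKO against SMKO ran over -0.42 to 0.13 for Bmp1 and -0.38 to 0.10 for P4ha1. DKO against ECKO ran over -0.21 to 0.41 for P4ha2, -0.11 to 0.25 for Plod2 and -0.05 to 0.31 for Plod3. P4ha2 in DKO against CTRL ran over -0.13 to 0.39. ECKO against CTRL ran over -0.25 to 0.37 for P4ha2 and -0.21 to 0.17 for Pcolce. SMKO against CTRL ran over -0.17 to 0.39 for Pcolce and -0.10 to 0.37 for Plod2. SMKO against ECKO ran over -0.06 to 0.13 for Adamts2, -0.19 to 0.37 for Pcolce, -0.25 to 0.01 for Plod3 and -0.20 to 0.47 for Serpinh1. With the replicate block, 0 members were called in DKO against CTRL, with 0.102 as the smallest adjusted p of a member. Over all genes, DKO against CTRL gave 31 calls, 16 with the depth covariate, 29 with DESeq2 size factors, 42 with DESeq2, 46 without the shallow libraries, 50 with the replicate block, 65 with limma-voom, 99 with the 2 groups alone and 158 with no filter. Leaving out 1 library moved it over 4 (without CTRL 2) to 139 (without SMKO 2), with 6 without CTRL 1, 7 without DKO 3, 12 without DKO 1, 15 without DKO 2 and 71 without SMKO 1. Low counts limit the members in SMKO 3, where Plod2 and P4ha2 had 4 counts each.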
